A study of Homo sapiens with 12 samples.

Results

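The 10 p53 target genes CDKN1A, MDM2, GADD45A, TP53I3, SESN1, FAS, TNFRSF10B, BTG2, ZMAT3 and FDXR were chosen by name. Each was found on 1 locus among the 31585 distinct gene loci measured in A375 cells, a human melanoma line, and all 10 passed the filter on low values described below. Of these, 9 were the only symbol listed on their loci. Exons of CDKN1A, MDM2, TP53I3, SESN1 and TNFRSF10B still share 1.6% to 9.5% of their bases with exons of each overlapping gene. The locus of FAS also lists STAMBPL1 and a further transcript, so that its values may include reads of those genes.

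The study asked which genes respond when the transcriptional co-activator YAP is made insensitive to the LATS kinases, and whether this needs the TEAD transcription factors. A375 cells were infected with the retroviral vector MSCV-IRES-Hygro and selected with hygromycin, so all 4 groups were stable, drug-selected lines, and each line was plated as 3 replicates for RNA sequencing. Cells with the vector alone were called Control. YAP-S127A carried human YAP with the serine-to-alanine change S127A, which prevents its retention in the cytoplasm. YAP-S127A,S94A carried in addition the change S94A, which removes TEAD binding. YAP-2SA carried S127A together with the same kind of change at a further LATS site that otherwise leads to degradation. The sample titles give this change as S381A, and the paper numbers the site differently. For the 3 YAP-2SA libraries, 1 field of the sample records and the series record also name S94A, but the titles do not, and the titles were followed. The series record gives 24 h of culture before lysis and the methods give 48 h. The records describe 1 transduced line per group, so that a difference between groups cannot be told apart from a difference between the selected lines, and p-values measure the spread between platings.

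p53 is a transcription factor that is held at a low level by the ubiquitin ligase MDM2 and is stabilised by DNA damage and other stress. It binds an element made of paired half-sites, and its targets stop the cell cycle, aid DNA repair and metabolism, or promote apoptosis. The target MDM2 closes a feedback loop on p53. Many p53 targets also respond to other transcription factors.

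The deposited values are log2(FPKM + 1), where FPKM is the number of fragments scaled to transcript length and to the mapped reads of the library. They carry no read counts, so the depth behind each value is unknown. Between 20161 and 20656 loci per library were above 0, and libraries of the same group correlated at 0.960 to 0.975 across loci. YAP1, the gene carried by the vectors, was at 34.1, 33.0 and 172 FPKM in Control, against 159, 159 and 187 for YAP-S127A, 151, 149 and 162 in YAP-S127A,S94A, and 130, 149 and 136 in YAP-2SA. The library labelled Control replicate 3 thus had a YAP1 level inside the range of the YAP-expressing cells. With it, YAP1 did not pass the test in YAP-2SA against Control (limma adjusted p = 0.0662), and without it YAP1 did (limma log2 difference 2.01, adjusted p = 1.26e-07). Counts against Control are therefore also given without that library.

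The cell type was checked on marker genes. Of 8 melanocyte lineage markers, 3 reached 1 FPKM in some library (MITF, SOX10 and S100B), and the summed level of all 8 was 281 to 345 FPKM in Control, 231 to 300.4 for YAP-S127A, 301 to 336 in YAP-S127A,S94A and 39.6 to 49.8 in YAP-2SA. They did not move together. In YAP-2SA the means of SOX10 and S100B were 6.16 and 0.807 FPKM, against 263 and 46.9 in Control, whereas MITF was at 35.02 FPKM against 8.59 and TYRP1 at 0.812 against 0.0749. All 6 markers of melanoma cells with little pigment were present, at summed levels of 1180 to 1320 FPKM over the 12 libraries. The sum was mostly VIM and S100A4, and these markers did not move together either. From Control to YAP-2SA the mean of AXL went from 45.4 to 187 FPKM and that of MCAM from 76.8 to 139. VIM went from 744 to 592 FPKM, S100A4 from 326 to 259, CSPG4 from 69.6 to 35.9 and NGFR from 11.96 to 7.83. The sum of 4 fibroblast markers was 2.68 to 4.26 FPKM in Control, 11.8 to 13.1 for YAP-S127A, 3.14 to 4.08 in YAP-S127A,S94A and 39.9 to 48.3 in YAP-2SA, of which COL1A1 and PDGFRB reached 1 FPKM and DCN did not. Of 4 epithelial markers, KRT5 and KRT14 reached 1 FPKM, with sums of 6.28 to 7.65 FPKM in Control, 6.5 to 11.3 for YAP-S127A, 7.11 to 7.42 in YAP-S127A,S94A and 2.13 to 2.19 in YAP-2SA. KRT14 had mean levels of 6.87 FPKM in Control and 0.434 in YAP-2SA, and KRT5 went the other way, from 0.0282 to 1.56. None of 4 blood and endothelial markers reached 1 FPKM, and their sums were 0.122 to 0.22 FPKM in Control and 0.521 to 0.67 in YAP-2SA. None of these 26 markers was at 0 in every library. Some of these markers thus had higher or lower means in YAP-2SA than in Control. Others did not, such as PMEL, which was low at 0.245 FPKM in Control and 0.247 in YAP-2SA. The marker levels are given without a test, and their part in the results below was not tested.

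The p53 element was searched on both strands within 3000 bases of the annotated start of each gene in the GRCh37 genome, allowing 2 mismatches to the consensus. Of 20090 protein-coding genes, 2837 (14.1%) held such a match, and 7 of the 9 members reported did. TNFRSF10B was among the 20090 genes, and its own result is not reported here. The matches are printed 5′ to 3′ on the strand of the gene because they show how far these genes share the element by which the group is known, with the 4 core bases of each half-site in capitals. CDKN1A and GADD45A, on the forward strand, and ZMAT3, on the reverse strand, are shown with MDM2, TP53I3 (reverse strand), FAS and BTG2.
CDKN1A, overlapping its first annotated base, at chr6:36644226-36644245: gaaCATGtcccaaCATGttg
CDKN1A, intron, at chr6:36645108-36645127: gaaGAAGactgggCATGtct
MDM2, intron, at chr12:69202703-69202722: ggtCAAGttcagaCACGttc
GADD45A, intron, at chr1:68152458-68152477: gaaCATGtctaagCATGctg
TP53I3, upstream, at chr2:24309651-24309670: ataCATCctcagaCATGttt
FAS, overlapping an exon, at chr10:90751066-90751085: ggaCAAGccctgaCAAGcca
BTG2, upstream, at chr1:203272770-203272789: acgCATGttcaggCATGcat
ZMAT3, intron, at chr3:178787976-178787995: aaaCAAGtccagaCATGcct
The ZMAT3 element had 0 mismatches and lay 2018 bases after the gene start, the GADD45A element had 1 and lay 1584 bases after it, and the others had 2. The BTG2 element was centred at position -1839 from the start and that of TP53I3 at -929, both upstream. No match was found in these windows of SESN1 and FDXR. A match is a description of the sequence, and binding of p53 was not measured.

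RefSeq promoters (GRCh38.p14, 250 bases before to 50 after each start) were found for 8 members. At least 1 promoter of SESN1, FAS and FDXR held an exact p53 half-site, which 8.1% of the 27305 genes in that table held, and 1 of TP53I3 and SESN1 held the hexamer GGAATG on either strand, the core of the TEAD motif, which 16.7% held. SESN1 and FAS each have 3 promoters in the table and FDXR has 2, which gives them more bases to match. The promoters of FDXR and TP53I3 are printed because these were the member with the largest rise and the only member that fell. The half-site of FDXR (capitals) spans -11 to -2 from the start, and the hexamer of TP53I3 (capitals, in its reverse complement) spans -15 to -10.
FDXR, chr17:74872945-74873244, reverse strand: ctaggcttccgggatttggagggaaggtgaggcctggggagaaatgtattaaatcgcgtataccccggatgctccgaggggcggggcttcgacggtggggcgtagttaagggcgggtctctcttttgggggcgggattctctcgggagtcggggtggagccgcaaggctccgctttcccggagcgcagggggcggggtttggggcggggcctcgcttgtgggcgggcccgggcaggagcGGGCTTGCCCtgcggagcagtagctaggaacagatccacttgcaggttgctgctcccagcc
TP53I3, chr2:24084785-24085084, reverse strand: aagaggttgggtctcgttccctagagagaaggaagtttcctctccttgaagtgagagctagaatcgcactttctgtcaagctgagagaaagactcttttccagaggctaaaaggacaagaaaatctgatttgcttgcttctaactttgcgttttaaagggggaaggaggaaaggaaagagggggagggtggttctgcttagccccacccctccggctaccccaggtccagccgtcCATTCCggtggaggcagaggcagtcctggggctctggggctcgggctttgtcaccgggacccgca

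Among the 10 genes, YAP-2SA cells had more CDKN1A, BTG2, GADD45A, FAS and FDXR RNA than Control, and less TP53I3. The rises ran from 1.49-fold for FAS to 2.41-fold for FDXR, and TP53I3 was at 0.658 of its Control level. MDM2, SESN1, TNFRSF10B and ZMAT3 did not pass the test. These are bulk samples, in which a change in the share of cells that express a gene and a change in its RNA per cell cannot be told apart. A single limma fit of the 12 libraries covered the 15055 loci that reached 1 FPKM in at least 3 of them, and a gene passed at a Benjamini-Hochberg adjusted p under 0.05 over all of them. Of the loci tested, 22.9% were higher and 19.5% lower in YAP-2SA by this rule, against 5 and 1 of the 10 members. With a ratio of group mean FPKM over 2 required as well, 3 members (GADD45A, BTG2 and FDXR) were higher and 0 lower, against 7.59% and 7.86% of all loci. The median log2 fold change was 0.34 over the members and 0.01 over all loci. Without the library labelled Control replicate 3, the same 6 members passed, 3 of them with a ratio over 2.

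**Figure D1:**
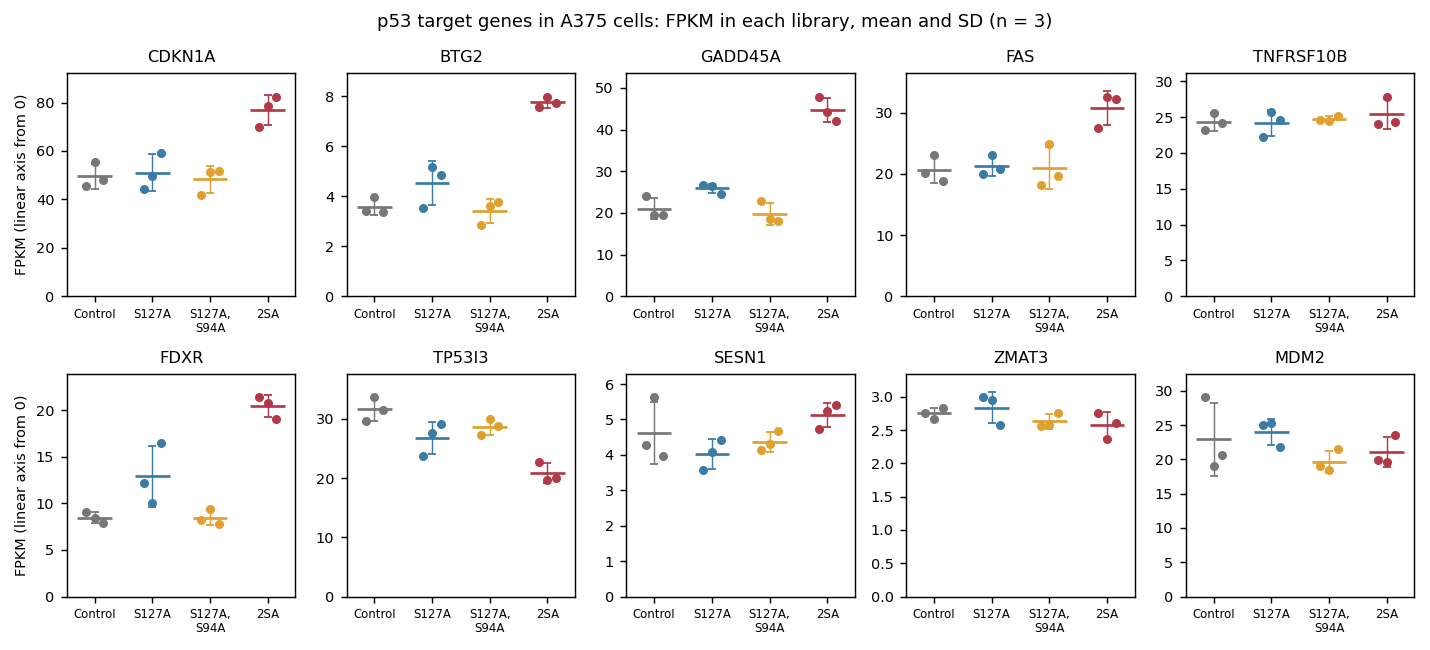
FPKM (linear axes from 0) of the 10 p53 target genes in the 4 groups of A375 cells; points are libraries, bars the mean and whiskers the SD (n = 3). The YAP-2SA points of CDKN1A, BTG2, GADD45A, FAS and FDXR lie above all other points, those of TP53I3 lie below them, and the groups of TNFRSF10B and ZMAT3 overlap.

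CDKN1A, BTG2 and GADD45A restrain the cell cycle. CDKN1A (chr6:36644237-36655114, forward strand) encodes p21, an inhibitor of cyclin-dependent kinases. It was at 45.5, 55.3 and 47.9 FPKM in Control, 44.3, 49.8 and 59.1 for YAP-S127A, 41.6, 51.5 and 51.6 in YAP-S127A,S94A, and 69.9, 78.7 and 82.2 in YAP-2SA. All YAP-2SA libraries were higher than the 9 others, whose groups overlapped. Group means were 49.6 ± 5.11, 51.1 ± 7.48, 48.2 ± 5.73 and 76.9 ± 6.37 FPKM (SD, n = 3). YAP-2SA was 1.55-fold above Control (log2 fold change 0.62, SE 0.12, limma adjusted p = 0.00198), and the other 3 groups did not differ beyond their spread in the order of means.

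BTG2 (chr1:203274619-203278730, forward strand), an antiproliferative protein that promotes mRNA deadenylation, was at 3.39, 3.98 and 3.38 FPKM in Control and 7.56, 7.97 and 7.74 in YAP-2SA. It was at 3.53, 5.18 and 4.86 FPKM in YAP-S127A and 2.87, 3.60 and 3.77 in YAP-S127A,S94A. YAP-2SA stood above every other library, and the YAP-S127A values spread over and above those of Control. The YAP-2SA mean was 2.16-fold the Control mean (log2 fold change 0.94, SE 0.12, limma adjusted p = 0.000121).

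GADD45A (chr1:68150884-68154017, forward strand) binds PCNA and p21 and acts in growth arrest and repair after DNA damage. Its FPKM was 23.97, 19.6 and 19.5 in Control, 26.6, 26.4 and 24.6 for YAP-S127A, 22.9, 18.4 and 18.1 in YAP-S127A,S94A, and 47.8, 44.3 and 41.99 in YAP-2SA. The 3 YAP-S127A libraries lay above all of Control and YAP-S127A,S94A, and YAP-2SA lay above all others. YAP-2SA exceeded Control 2.13-fold (log2 fold change 1.06, SE 0.10, limma adjusted p = 1.12e-05).

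FAS and TNFRSF10B are cell surface death receptors. FAS (chr10:90750414-90775542, forward strand) was at 20.1, 23.2 and 18.9 FPKM in Control, 19.95, 23.2 and 20.8 for YAP-S127A, 18.2, 24.8 and 19.8 in YAP-S127A,S94A, and 27.5, 32.6 and 32.3 in YAP-2SA. The first 3 groups overlapped and YAP-2SA lay above them. FAS was 1.49-fold higher in YAP-2SA than in Control (log2 fold change 0.55, SE 0.12, limma adjusted p = 0.00361). Its exons share 10.7% of their bases with exons of ACTA2 and 25.7% with those of an unnamed gene, both on the opposite strand, and whether the counting used the strand is not given in the sources used here. TNFRSF10B (chr8:22877646-22926544, reverse strand), a receptor of the ligand TRAIL, was at 23.1, 25.6 and 24.2 FPKM in Control and 24.1, 27.8 and 24.3 in YAP-2SA. Its 4 groups overlapped, with group means between 24.2 and 25.4 FPKM. The log2 fold change in YAP-2SA against Control was 0.06, with a 95% interval from -0.10 to 0.22 (limma adjusted p = 0.542). The difference between the changes of the 2 receptors was not tested.

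FDXR, TP53I3 and SESN1 act in metabolism and redox balance. FDXR (chr17:72858619-72869156, reverse strand) is the mitochondrial reductase that passes electrons to ferredoxin. Its levels were 9.04, 8.47 and 7.84 FPKM in Control, 12.2, 9.997 and 16.5 for YAP-S127A, 8.25, 9.36 and 7.79 in YAP-S127A,S94A, and 21.4, 20.7 and 19.1 in YAP-2SA. The groups formed 3 tiers without overlap, with Control and YAP-S127A,S94A together at the bottom, YAP-S127A between and YAP-2SA at the top. The YAP-2SA mean was 2.41-fold that of Control (log2 fold change 1.18, SE 0.14, limma adjusted p = 6.38e-05), the largest fold among the members.

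TP53I3 (chr2:24300303-24308731, reverse strand), a quinone oxidoreductase linked to oxidative stress in apoptosis, was the 1 member that fell. It was at 29.7, 33.6 and 31.5 FPKM in Control, 23.8, 27.6 and 29.1 for YAP-S127A, 27.2, 29.9 and 28.8 in YAP-S127A,S94A, and 22.8, 19.7 and 19.9 in YAP-2SA. All YAP-2SA libraries were below the other 9, and the YAP-S127A libraries were below all of Control. The log2 fold change in YAP-2SA against Control was -0.58 (SE 0.08, limma adjusted p = 0.000254). SESN1 (chr6:109305512-109416049, reverse strand), a sestrin that restrains mTORC1, was at 4.29, 5.62 and 3.96 FPKM in Control, 3.58, 4.08 and 4.42 for YAP-S127A, 4.13, 4.30 and 4.68 in YAP-S127A,S94A, and 4.74, 5.23 and 5.41 in YAP-2SA. Its YAP-2SA libraries lay above those of both other mutants and overlapped Control. Against Control its log2 fold change was 0.13, with a 95% interval from -0.12 to 0.38 (limma adjusted p = 0.372).

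MDM2, the negative regulator of p53, and ZMAT3 did not pass in any of the 6 comparisons. MDM2 (chr12:69201957-69239324, forward strand) was at 29.02, 19.04 and 20.7 FPKM in Control, 24.99, 25.3 and 21.8 for YAP-S127A, 18.97, 18.5 and 21.5 in YAP-S127A,S94A, and 19.9, 19.6 and 23.6 in YAP-2SA. Control spread over most of the range of the other groups, and only YAP-S127A and YAP-S127A,S94A did not overlap. In YAP-2SA against Control the log2 fold change was -0.10, with a 95% interval from -0.41 to 0.21 (limma adjusted p = 0.598). ZMAT3 (chr3:178677909-178790003, reverse strand), an RNA-binding zinc finger protein, was at 2.75, 2.66 and 2.83 FPKM in Control, 2.99, 2.95 and 2.57 for YAP-S127A, 2.56, 2.58 and 2.76 in YAP-S127A,S94A, and 2.76, 2.37 and 2.61 in YAP-2SA. All 4 groups overlapped, and the log2 fold change against Control was -0.07 with a 95% interval from -0.23 to 0.10 (limma adjusted p = 0.493). ZMAT3 held the element with the fewest mismatches among those printed above.

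YAP-S127A against Control asked what YAP does when it is freed from cytoplasmic retention but can still be degraded. With limma, 0 of the 10 members passed in either direction, whereas 4.56% of all loci were higher and 1.75% lower. Beside 2953 of the 15055 loci tested, 3 members had an unadjusted p under 0.05. These were FDXR, 1.52-fold above Control (log2 fold change 0.53, SE 0.14, limma adjusted p = 0.0558), GADD45A, 1.23-fold above it (0.29, SE 0.10, limma adjusted p = 0.136), and TP53I3, at 0.848 of it (-0.23, SE 0.08, limma adjusted p = 0.152). For each of these 3 the ranges of the 2 groups did not overlap, and how often this held over all loci was not counted. BTG2 had a log2 fold change of 0.26 (limma adjusted p = 0.284), and CDKN1A and FAS had 0.04 each, with 95% intervals from -0.24 to 0.31 and from -0.23 to 0.30. The median over the members was 0.04 and over all loci 0.00. FDXR passed when YAP-S127A replicate 2 was left out (log2 fold change 0.69, limma adjusted p = 0.011), and without the library labelled Control replicate 3 the count was 0.

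YAP-S127A,S94A against Control asked what remains when the protein cannot bind TEADs. By limma, 0 members passed, and of all loci 0.0864% were higher and 0.093% lower. An unadjusted p under 0.05 was found for 0 members and for 661 of the 15055 loci tested. The log2 fold changes of the members ran from -0.19 for MDM2 to 0.03 for TNFRSF10B, with a median of -0.05 against 0.01 over all loci. The 95% intervals were -0.31 to 0.14 for GADD45A, -0.33 to 0.22 for BTG2, -0.32 to 0.32 for FDXR and -0.32 to 0.23 for CDKN1A. Without the library labelled Control replicate 3 the count was again 0.

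**Figure D2:**
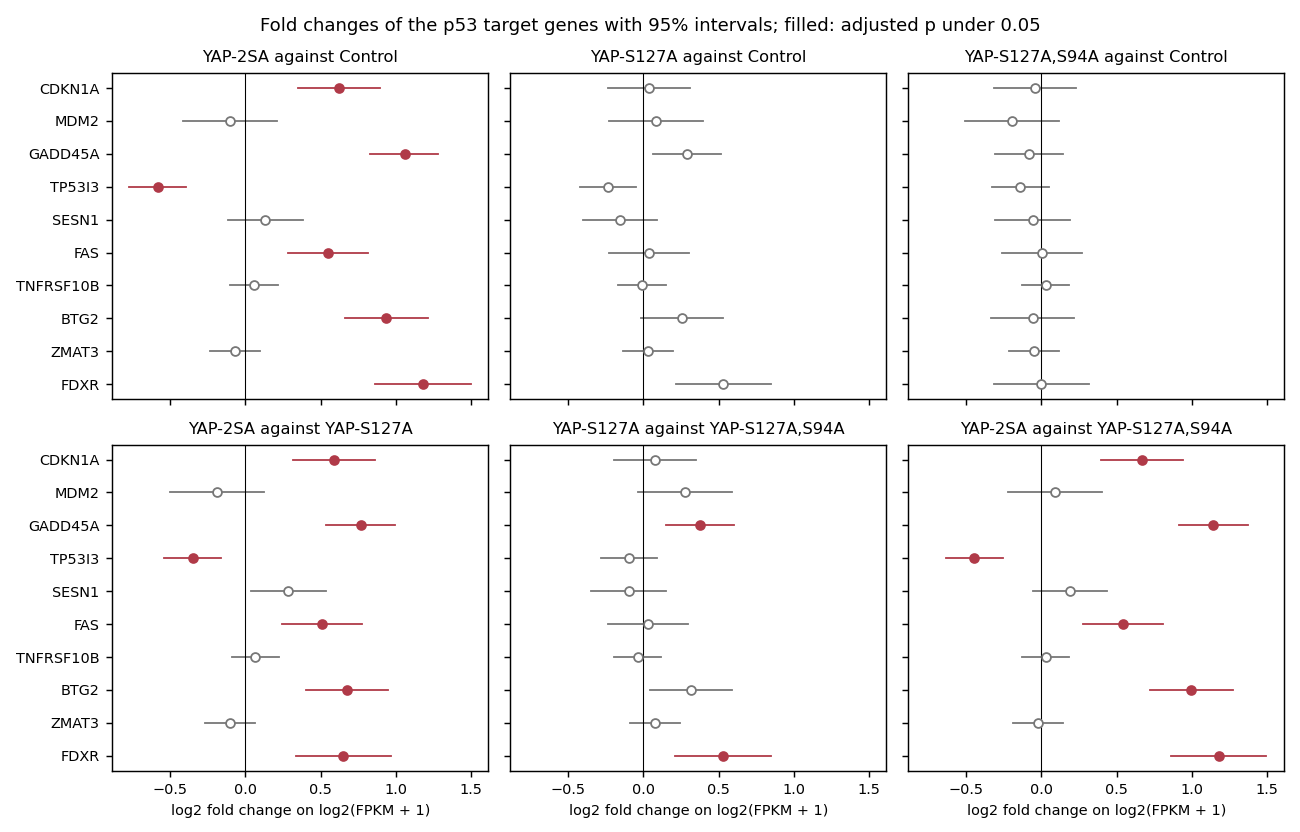
Log2 fold changes on the log2(FPKM + 1) scale (horizontal axis) of the 10 genes in 6 comparisons, with 95% intervals; filled points passed at an adjusted p under 0.05. The same 6 genes are filled in each comparison of YAP-2SA, 5 to the right of 0 and TP53I3 to the left, and 0 are filled in the comparisons of YAP-S127A,S94A and of YAP-S127A with Control.

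The mutants were also compared with each other, in which no Control library enters the contrast, although all 12 libraries set the common spread. YAP-2SA against YAP-S127A asked what the second phosphorylation site adds. CDKN1A, GADD45A, FAS, BTG2 and FDXR were higher in YAP-2SA and TP53I3 was lower, the 6 genes that passed against Control. That is 5 higher and 1 lower of 10, against 18.3% and 14.5% of all loci, and the median log2 difference was 0.40 over the members and 0.02 over all loci. GADD45A differed by 0.77 on the log2 scale (SE 0.10, limma adjusted p = 0.00021), BTG2 by 0.68 (SE 0.12, limma adjusted p = 0.00173) and FDXR by 0.65 (SE 0.14, limma adjusted p = 0.00539). CDKN1A differed by 0.59 (limma adjusted p = 0.00411), FAS by 0.51 (limma adjusted p = 0.00779) and TP53I3 by -0.35 (limma adjusted p = 0.00946). SESN1 had a difference of 0.29 (limma adjusted p = 0.0749), which passed without Control replicate 2 (adjusted p = 0.0288).

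YAP-S127A against YAP-S127A,S94A compared forms that differ at the residue needed for TEAD binding, each in 1 selected line. GADD45A was 1.31-fold higher in YAP-S127A (log2 difference 0.38, SE 0.10, limma adjusted p = 0.0419) and FDXR was 1.52-fold higher (0.53, SE 0.14, limma adjusted p = 0.0404). These are 2 higher and 0 lower of 10 members, against 6.36% and 4.31% of all loci, with a median of 0.08 over the members and -0.01 over all loci. Both calls were near the threshold, and leaving out any 1 of the 12 libraries lost at least 1 of them, so that 0 or 1 member then passed. The ranges of the 2 groups did not overlap for GADD45A, FDXR and MDM2, and how often this held over all loci was not counted. MDM2 differed by 0.28 (limma adjusted p = 0.256) and BTG2 by 0.32 (limma adjusted p = 0.139), which passed without YAP-S127A replicate 1 (adjusted p = 0.0287).

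In YAP-2SA against YAP-S127A,S94A the same 6 members passed, 5 higher and 1 lower, against 23.2% and 20.3% of all loci. GADD45A was 2.26-fold higher (log2 difference 1.14, limma adjusted p = 5.9e-06), BTG2 2.27-fold (0.99, limma adjusted p = 7.23e-05) and FDXR 2.41-fold (1.18, limma adjusted p = 5.98e-05). These 3 also exceeded a ratio of 2, as did 7.81% of loci higher and 8.1% lower. CDKN1A differed by 0.67 (limma adjusted p = 0.00126), FAS by 0.54 (limma adjusted p = 0.00375) and TP53I3 by -0.44 (limma adjusted p = 0.00156). The median was 0.37 over the members and 0.00 over all loci. The comparisons share groups, so their counts are not independent of each other.

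The loci with 1 gene symbol and the most similar profiles over the 12 libraries, by Pearson correlation of log2(FPKM + 1), were LRRC8E and OXSR1 for GADD45A (0.990 and 0.988), GNAI2 and GOT1 for FDXR (0.994 and 0.992), and FERMT2 and SAMHD1 for BTG2 (0.983 and 0.982). For CDKN1A they were PIP5K1A and FAM118A (0.970 and 0.964), for FAS NUP107 and DUSP5 (0.973 and 0.972), and for TP53I3 EPHA4 and RIPK4 (0.950 and 0.948). These points share the 4 groups, and the correlations are given as a description.

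MDM4, a partner of MDM2 that also inhibits p53, was at 7.35, 7.01 and 6.91 FPKM in Control and 5.12, 6.28 and 5.90 in YAP-2SA (log2 fold change -0.26, limma adjusted p = 0.124). CDKN2A, whose locus encodes p16 and the MDM2 inhibitor ARF, was at 1.67, 1.66 and 2.34 FPKM in Control and 2.89, 2.28 and 2.60 in YAP-2SA (log2 fold change 0.32, limma adjusted p = 0.0553). Without the library labelled Control replicate 3, CDKN2A passed (log2 fold change 0.43, limma adjusted p = 0.0172). Of 16 regulators of p53, 0 were higher and 3 lower in YAP-2SA against Control, and without that library 1 (CDKN2A) was higher and the same 3 lower. With all libraries, the 18.8% that were lower are close to the 19.5% of all loci, and the 0.0% that were higher stand beside 22.9%. The 3 were HIPK2, a kinase that phosphorylates p53, the ubiquitin ligase RCHY1 and the phosphatase PPM1D. HIPK2 fell from 19.97, 17.8 and 21.6 FPKM in Control to 6.62, 6.52 and 6.21 in YAP-2SA (log2 fold change -1.48, SE 0.11, limma adjusted p = 1.96e-06), while RCHY1 and PPM1D had log2 fold changes of -0.27 and -0.33. The related factor TP73 was lower too (-0.36, limma adjusted p = 0.0214), and TP63 did not pass the filter on low values.

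**Figure D3:**
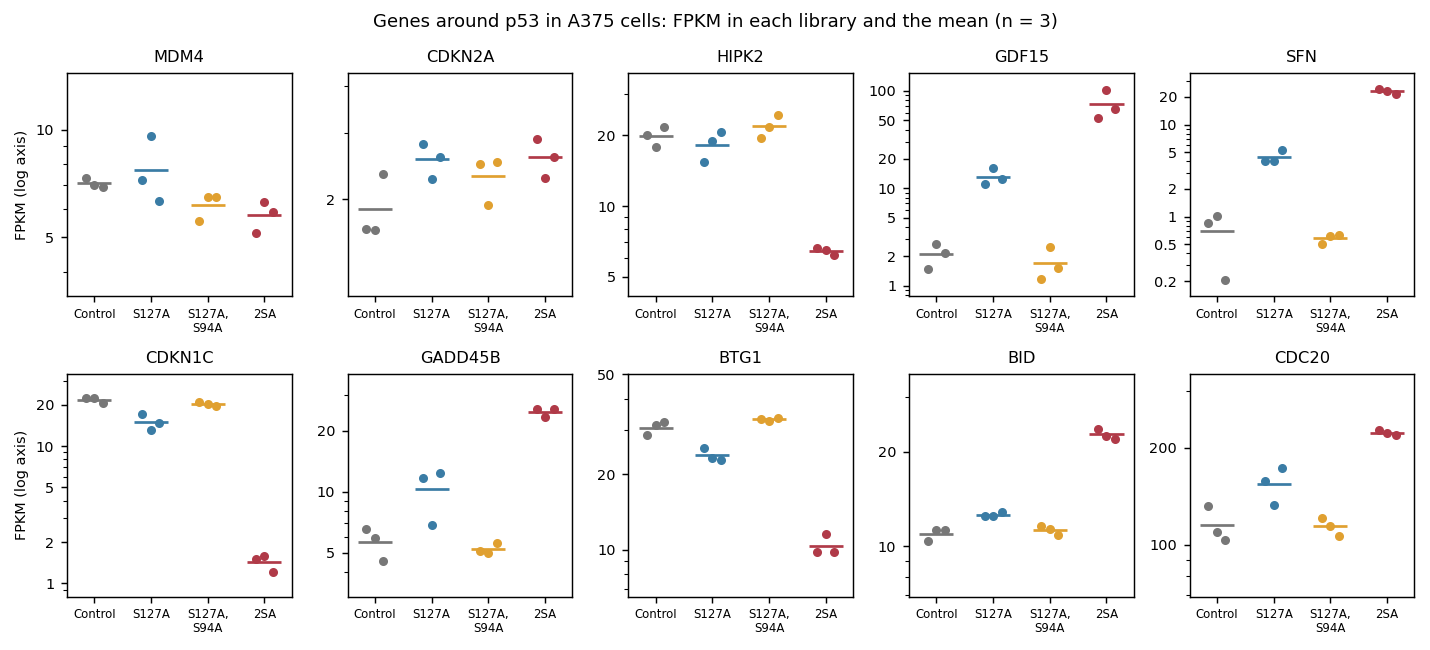
FPKM (log axes) of MDM4, CDKN2A, HIPK2 and 7 further genes in each library, with group means as bars (n = 3). GDF15, SFN and GADD45B step up from Control and YAP-S127A,S94A through YAP-S127A to YAP-2SA, CDKN1C and BTG1 step down in the same order, and the YAP-2SA points of MDM4 lie below those of Control.

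Further p53 targets were read from 4 lists, of which 43 of 52 genes were tested. In YAP-2SA against Control 20 were higher, 5 lower and 18 did not pass, with a median log2 fold change of 0.27 against 0.01 over all loci. As shares these are 46.5% and 11.6%, beside 22.9% and 19.5% of all loci. Without the library labelled Control replicate 3 the numbers were 17 higher and 5 lower, all among those 25, and without YAP-2SA replicate 2 15 were higher. In YAP-S127A against Control 3 were higher and 1 lower, which is 7.0% and 2.3% beside 4.56% and 1.75% of all loci, and without that Control library 2 were higher (GDF15 and SFN) and 0 lower. In YAP-S127A,S94A against Control 0 passed by limma, with or without it. An unadjusted p under 0.05 was found for 1, beside 661 of the 15055 loci tested.

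Of 11 cell cycle targets 6 were higher and 2 lower in YAP-2SA, or 54.5% and 18.2% beside the 22.9% and 19.5% of all loci, and 5 and 2 were without the library labelled Control replicate 3. GDF15, a secreted stress cytokine, went from 1.49, 2.71 and 2.16 FPKM in Control to 53.3, 101 and 65.95 in YAP-2SA, with 10.96, 16.2 and 12.4 in YAP-S127A and 1.17, 2.48 and 1.51 in YAP-S127A,S94A. SFN, the 14-3-3 sigma protein that holds cells before mitosis, was at 0.857, 1.01 and 0.205 FPKM in Control, 4.01, 4.03 and 5.32 in YAP-S127A and 24.1, 23.3 and 21.6 in YAP-2SA. These were the steepest rises, with log2 fold changes of 4.55 and 3.86 in YAP-2SA (limma adjusted p = 1.72e-07 and 2.82e-08) and of 2.19 and 1.71 in YAP-S127A (limma adjusted p = 0.000524 and 0.00018). The kinase PLK2 rose 3.25-fold and the repressor E2F7 2.01-fold in YAP-2SA, while the antiproliferative BTG1 fell to 0.337 of Control (log2 fold change -1.48, limma adjusted p = 6.18e-08) on a locus that lists other transcripts too.

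Among 13 apoptosis targets 8 were higher and 1 lower in YAP-2SA (61.5% and 7.7%, beside the same shares of all loci), and 7 and 1 were without the library labelled Control replicate 3, when BBC3 did not pass. BID, which links death receptors to mitochondria, rose 2.07-fold (log2 fold change 0.99, limma adjusted p = 1.12e-07), and BAX, PMAIP1 and BBC3, which act at the mitochondrial membrane, rose by 0.53, 0.59 and 0.50 on the log2 scale. The nuclease AEN fell (log2 fold change -0.77). Of 10 DNA repair targets 4 were higher, among them the polymerase gene POLH (0.62) and the damage sensor gene XPC (0.35), and 1 was lower, REV3L (-0.74), which is 40.0% and 10.0%, and the same 5 passed without that library. Of 9 metabolism and stress targets 2 were higher and 1 lower, SAT1, a polyamine acetyltransferase (log2 fold change -1.37), on a locus shared with another transcript. These are 22.2% and 11.1%, near the 22.9% and 19.5% of all loci for a list in which 1 gene is 11.1%. Without that library 1 was higher and 1 lower.

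**Figure D4:**
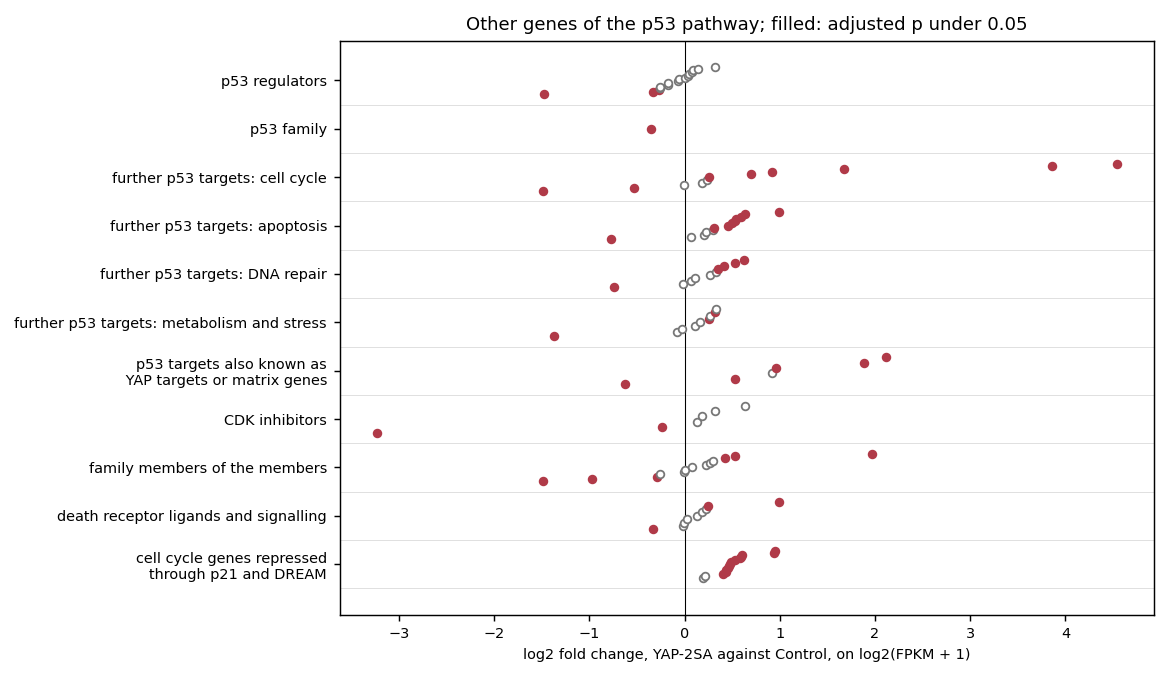
Log2 fold changes in YAP-2SA against Control (horizontal axis, log2(FPKM + 1) scale) of the tested genes of 11 lists around p53, 1 point a gene; filled points passed at an adjusted p under 0.05. Of the 15 cell cycle genes known to be repressed through p21, 13 are filled and all of these lie right of 0, and the CDK inhibitor list holds the leftmost point, CDKN1C at -3.23.

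A list of 6 p53 targets that are also known YAP or matrix genes held 4 that were higher and 1 lower in YAP-2SA (66.7% and 16.7%, beside 22.9% and 19.5% of all loci), and the same 5 passed without the library labelled Control replicate 3. HBEGF, a ligand of the EGF receptor, rose 5.69-fold and EPHA2, an ephrin receptor, 3.73-fold. Of 13 relatives of the members tested, 3 were higher and 3 lower, and the share of 23.1% in each direction is close to that of all loci. Without that library 1 was higher and 3 lower, and BTG3 and TNFRSF11B did not pass. GADD45B was at 6.54, 5.90 and 4.56 FPKM in Control, 11.8, 6.90 and 12.4 in YAP-S127A and 25.6, 23.3 and 25.5 in YAP-2SA, a log2 fold change of 1.96 in YAP-2SA (SE 0.18, limma adjusted p = 8.41e-06) beside 1.06 for GADD45A. SESN3 was at 1.29, 1.59 and 1.47 FPKM in Control and 0.225, 0.212 and 0.316 in YAP-2SA (log2 fold change -0.97, limma adjusted p = 0.00151), SESN2 had 0.27 (limma adjusted p = 0.0995) and SESN1 had 0.13. BTG3 was higher (0.53) and BTG1 and TOB1 lower (-1.48 and -0.29), beside the rise of BTG2. The decoy receptor TNFRSF11B was higher (0.43), while TNFRSF10A (0.30, limma adjusted p = 0.156) and TNFRSF10C (0.22, on a shared locus) did not pass. TOB2, FDX1 and ZMAT2 had log2 fold changes of 0.07, 0.00 and 0.01 and did not pass. GADD45G, TNFRSF10D and ZMAT1 did not pass the filter on low values. Of 9 death receptor signalling genes, BID and FADD (0.25) were higher and RIPK1 lower (-0.33). These are 22.2% and 11.1%, near the shares of all loci for a list in which 1 gene is 11.1%. The same 3 passed without the library labelled Control replicate 3. The ligands FASLG and TNFSF10 did not pass the filter.

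Of 6 other CDK inhibitors tested, 0 were higher and 2 lower in YAP-2SA against Control by limma (0.0% and 33.3%, beside 22.9% and 19.5% of all loci). An unadjusted p under 0.05 was found for 4, beside 7485 of the 15055 loci tested. The inhibitors that passed changed without the library labelled Control replicate 3, when CDKN2A and CDKN3 were higher and CDKN1C alone was lower. CDKN1C, which encodes p57, was at 22.3, 22.6 and 20.6 FPKM in Control, 17.1, 13.2 and 14.8 for YAP-S127A, 20.96, 20.4 and 19.6 in YAP-S127A,S94A, and 1.51, 1.59 and 1.20 in YAP-2SA. It fell to 0.0656 of Control in YAP-2SA (log2 fold change -3.23, SE 0.09, limma adjusted p = 1.32e-09) and to 0.688 in YAP-S127A (limma adjusted p = 0.00791). CDKN1B, which encodes p27, was at 0.842 of Control in YAP-2SA (limma adjusted p = 0.0192), and did not pass without that library (limma adjusted p = 0.0619). CDKN3, a phosphatase that acts on cyclin-dependent kinases, was at 31.5, 47.7 and 61.3 FPKM in Control, 25.98, 30.9 and 47.3 for YAP-S127A, 33.4, 25.9 and 33.0 in YAP-S127A,S94A, and 56.04, 69.5 and 91.2 in YAP-2SA. Its YAP-2SA range overlapped Control alone. It was 1.54-fold above Control (log2 fold change 0.64, limma adjusted p = 0.0884, or 0.0399 without the library labelled Control replicate 3), 2.08-fold above YAP-S127A (1.05, limma adjusted p = 0.0139) and 2.35-fold above YAP-S127A,S94A (1.19, limma adjusted p = 0.00525).

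Cell cycle genes that p53 is known to repress through p21 and the DREAM complex were mostly higher in YAP-2SA, in which CDKN1A was higher too. Of 15 such genes, 13 (86.7%) were higher and 0 lower in YAP-2SA against Control, beside 22.9% and 19.5% of all loci, with a median log2 fold change of 0.47 against 0.01 over all loci, and the same 13 passed without the library labelled Control replicate 3. CDC20, an activator of the anaphase-promoting complex, was at 132, 110 and 104 FPKM in Control and 226, 222 and 218 in YAP-2SA (log2 fold change 0.95, limma adjusted p = 3.69e-05). MYBL2, CCNB1, CDK1 and FOXM1 had log2 fold changes of 0.93, 0.46, 0.47 and 0.60. E2F1 and CDC25C, with 0.22 and 0.19, did not pass. In YAP-S127A against Control 3 of the 15 were higher, beside 4.56% of all loci, and 1 (MKI67) without that Control library. In YAP-S127A,S94A against Control 0 passed by limma with 0 at an unadjusted p under 0.05, beside 661 of the 15055 loci tested. In YAP-2SA against YAP-S127A 10 (66.7%, beside 18.3% of all loci) were higher.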

How the data were processed

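The authors sequenced RNA from 12 A375 libraries, 3 per group, aligned reads to hg19 with Bowtie2 2.0.0 and TopHat2 2.0.4 after bcl2fastq 2.15.0, and assembled transcripts with Cufflinks 2.0.2, versions that the submitters' processing notes list. The deposited table holds log2(FPKM + 1) per locus and library; it has no counts, so no count test was used. Of 31588 entries, 3 identical ones were removed. Columns were assigned to groups by their names, and 0 were left unassigned. Where more than 1 locus held a symbol, the one with the highest mean over the 12 columns was used.

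The 15055 loci that reached an FPKM of 1 in 3 or more libraries were fitted with limma 3.58.1 (R 4.3.3) on the log2 values, using 1 mean per group, all 12 libraries and an intensity trend, for 6 comparisons, and p-values were adjusted by the Benjamini-Hochberg method over all loci tested. The procedure was tested on simulated data for YAP-2SA against Control, with changes larger than that of any member, and smaller changes were not simulated. Fold changes of means were taken from FPKM without a pseudocount, and log2 fold changes, on the log2(FPKM + 1) scale, understate the change of low genes. FPKM values give no depth, so no counting interval can be given.

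The genes named were the 10 members, YAP1, MDM4, CDKN2A, relatives of the members, up to 4 genes per list and direction past an adjusted p of 0.05 and a ratio of 2 in YAP-2SA against Control, and the 2 most similar loci of each called member; other genes of the lists, which illustrate a count, were chosen after their values were seen. The members and lists were chosen with earlier results of these data known. Gene coordinates are from GENCODE on GRCh37 and promoters from RefSeq on GRCh38.p14. The main fit did not pair libraries by replicate number. Alternatives were another pseudocount, other filters, 2 other scalings, fewer libraries, a replicate block, no trend, other thresholds, summed loci and each library left out. Figures were drawn with matplotlib 3.10.9 in Python 3.11.15. One item of the rule is not reported here.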

Additional observations from a re-analysis of the deposited data

How the results depend on the processing

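In YAP-2SA against Control, YAP-2SA against YAP-S127A and YAP-2SA against YAP-S127A,S94A, 6 members passed. The 6 that passed against Control passed in all 21 refitted alternatives, with highest adjusted p-values of 0.0168 for FAS and 0.0104 for CDKN1A (limma). A ratio of group means over 2 reduced the 3 counts to 3, 0 and 3. YAP-S127A against Control went from 0 to 1 under median-ratio scaling (FDXR) and with the replicate block (GADD45A), and ranged from 0 to 1 with 1 library left out. YAP-S127A,S94A against Control stayed at 0. The 2 calls in YAP-S127A against YAP-S127A,S94A became 1 under median-ratio scaling, quantile normalization and the replicate block, and 0 with no filter, with only the 6 libraries compared, with a ratio over 2 and at an adjusted p under 0.01, and ranged from 0 to 1 with 1 library left out. SESN1 also passed in YAP-2SA against YAP-S127A under quantile normalization (adjusted p = 0.0363, limma). Of the further p53 targets in YAP-2SA against Control, where the alternatives were chosen after seeing the data, the 20 higher became 5 with a ratio over 2 and 13 at an adjusted p under 0.01, and the 5 lower became 2 with a ratio over 2. The 13 higher cell cycle genes became 0 with a ratio over 2. Of 1260 single values of the members under alternatives, 1195 kept their direction and side of the threshold, 26 were lost, 6 were gained and 33 changes of sign were in values never called. The cause of these changes was not tested. The block changed no other count by more than 1.5 times. Of 18 same-number pairs, 2 had correlated deviations over 0.1 (range -0.149 to 0.163) and 8 exceeded both other pairings. These low correlations cannot settle whether libraries of the same replicate number shared a batch. With the block, the loci that passed in YAP-2SA against Control went from 6375 to 6828. The count also rose in the other comparisons except YAP-S127A,S94A against Control, where it went from 27 to 24 (limma). The unknown depth limits the precision of the low genes ZMAT3, BTG2 and SESN1 by an amount that cannot be given. The counts of the other gene lists without the library labelled Control replicate 3 were also chosen after seeing the data. Over all loci, the number that passed in YAP-2SA against Control fell to 5568 without that library. It also fell without Control replicate 1 (5797) and without Control replicate 2 (5796).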
